A study of Caenorhabditis elegans with 4 samples.

Results

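LTR retrotransposons of Caenorhabditis elegans were examined in populations of gravid adult rde-3 mutant and wild-type animals. The members were the rows of the authors' deposited table named by element, family and class whose class was LTR, and there were 38 of them among 170 repeat rows and 18638 rows in all. They comprised 24 rows of the Pao family, 12 of the Gypsy family and 2 rows with no closer family, and 18 were internal parts or whole elements and 20 were LTR ends. The mutant group was the rde-3 strain YY1449 (2 libraries) and the control group was N2, the standard laboratory wild type (2 libraries). Both were sequenced as polyadenylated RNA of whole animals, and the labels name no allele, treatment or age beyond the gravid adult stage. Each genotype was a single strain, so the rde-3 genotype, other differences between the strains and a different number of copies of an element cannot be told apart. In RNA of whole animals, a change in the share of cells that hold a transcript and a change in its amount per cell cannot be told apart either.

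An LTR retrotransposon consists of an internal part that encodes Gag and Pol proteins, flanked by a pair of long terminal repeats. Transcription starts in the upstream repeat and ends in the downstream one, and the RNA serves both as messenger and as template for reverse transcription into new DNA copies. In C. elegans these elements are named Cer, and particles of Cer1 have been seen in the germ line. The gene rde-3, also called mut-2, makes the enzyme that extends RNAs with poly(UG) tails, and RNA-dependent RNA polymerases use the tailed RNAs to make small interfering RNAs. Here a suffix -I marks an internal part and -LTR an end. The row CER1 has no suffix, and the labels do not say whether it is an internal part or a whole element. It was counted with the internal rows and set against the end LTRCER1.

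The table gives 1 mean normalized count per row over all 4 libraries. Those means were sums of whole reads divided by 4 size factors, and the whole reads in each library could be solved from them for 18426 rows, including all 170 repeats. Libraries are called A and B within a group, and these letters are arbitrary and are not the replicate numbers. Libraries were placed on the mutant or wild-type side by the sign of the authors' deposited log2 fold change. That value was taken as mutant over wild type because the comparison names the mutant before the wild type. The recovered reads came to 10438424 and 6515435 in the mutant libraries, and to 12317151 and 8833020 in the wild-type libraries. Rows too abundant to solve are not in these totals. The RNA of mut-2 itself stood at 846 and 745 normalized counts in the mutants, against 726 and 805 in the wild type, and did not pass in the authors' deposited table (log2 0.06 ± 0.16, adjusted p = 0.905). Among tissue marker lists, 35 of 43 sperm genes were lower and 1 was higher, and 14 of 15 oocyte genes were higher, by the authors' deposited table. The summed normalized count of the sperm list was 1286 and 1106 in the mutants, against 7052 and 5281 in the wild type, and 1 of its genes had no reads in a group. The 6 oocyte genes with library values summed to 44321 and 38469 in the mutants, against 28118 and 31069 in the wild type. Of 12 muscle genes 10 were lower, and of 13 germline genes 3 were higher and 4 were lower. Of 10 intestine genes 3 were higher and 2 were lower, and of 10 neuronal genes 1 was higher. Beside these list counts, 9.42% of all rows were higher and 8.04% lower in the authors' deposited table. Among rows with a mean of at least 100 the shares were 19.1% and 14.9%. The part of these tissue differences in the LTR results was not tested.

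A minority of LTR rows were called, and most of the called rows were higher in the mutants. Of the 38 rows 6 were higher and 1 lower at an adjusted p of 0.05 in the authors' deposited table, against 9.42% of all rows higher and 8.04% lower, or 17.5% in either direction. The 6 rows were CER9-I, CER3-I, CER3-LTR, CER13-I, CER8-I and CER1, and the lower row was CER17-I. Among the 21 members with a mean of at least 10 normalized counts 5 were higher and 1 lower, against 14% and 11.9% of all rows with such a mean. The median log2 fold change was 0.67 over the 38 members and -0.02 over all rows of the authors' deposited table. A second test, limma on the recovered library counts of rows with a mean of at least 10, called 7 of the 21 members higher and 1 lower, against 18.3% and 18.4% of all rows tested. It called the same 5 higher members of this mean and CER17-I, and it added CER16-2-LTR and CER7-I. With no filter on low means limma called 6 members higher and 1 lower, against 10.3% and 10.8% of rows, and with a pseudocount of 0.5 it called 7 and 1, against 18.2% and 18.4%. Each fit with a library left out has a single library in one group, which is assumed to vary like the other group and like rows of similar mean, so that its p-values are no measure of stability. Without mutant library A the counts were 8 and 1, against 16.1% and 19.5% of rows, and without mutant library B 10 and 1, against 18.9% and 19.0%. Without wild-type library A they were 6 and 1, against 7.79% and 8.04%, and without wild-type library B 5 and 1, against 9.98% and 9.63%. With the threshold at 0.01, 4 members were higher and 1 lower in the authors' deposited table, against 6.47% and 5.32% of all rows. Adjusted over rows with a mean of at least 10, 5 were higher and 1 lower, against 15.2% and 13.3%. Recentred on abundant genes, 6 were higher and 1 lower, against 7.92% and 9.29%. With a log2 change of at least 1 also required, 5 were higher and 0 lower, against 2.92% and 3.39%. Read against t with 2 degrees of freedom the deposited statistic called no member, and 0.00% of all rows in either direction. Under that setting even CER9-I had an adjusted p of 0.682, so it cannot set LTR rows apart from other rows.

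**Figure D1:**
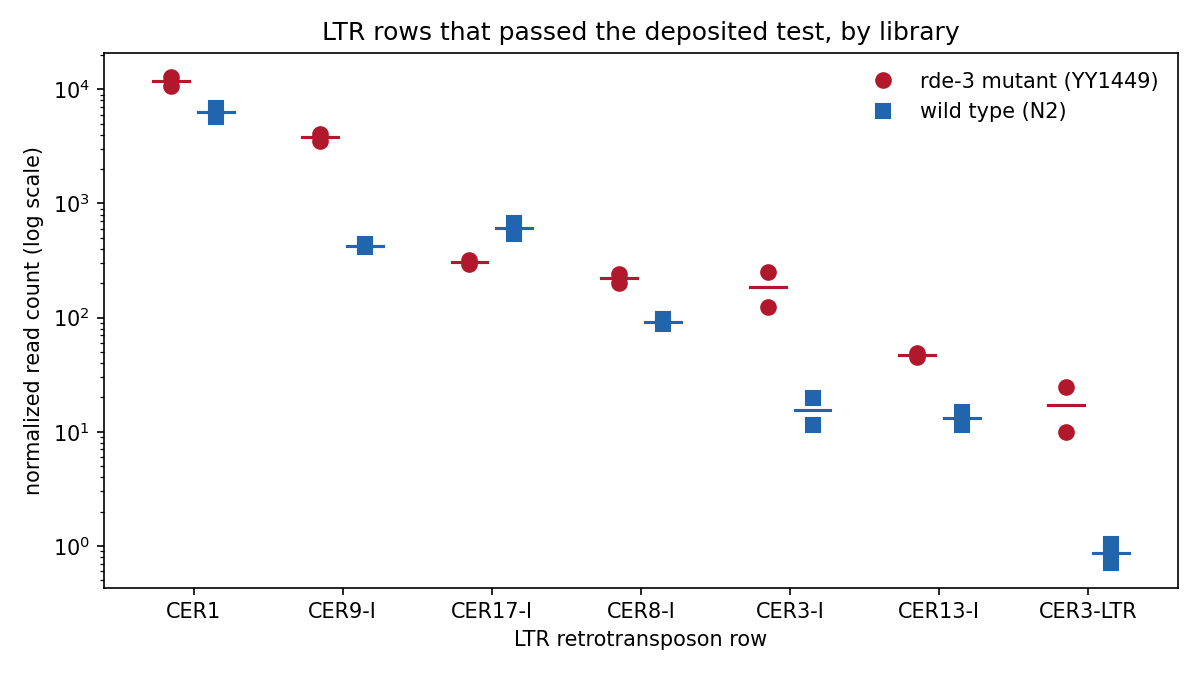
Normalized read count (vertical axis, log scale) of the 7 LTR rows that passed the deposited test, by library: circles, the 2 rde-3 mutant libraries; squares, the 2 wild-type libraries; lines, group means. The groups do not overlap for any of the 7 rows, and CER17-I is the one with the mutant libraries below. The rows were chosen by a test on these same libraries, so this separation adds no evidence. Among all recovered rows with a mean of at least 10, the groups separated in 34.4% with the mutants higher and 34.4% with them lower.

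CER9-I, the internal part of a Pao family element, had the smallest adjusted p of all LTR rows. It stood at 4099 and 3521 normalized counts in the mutant libraries, against 418 and 438 in the wild-type libraries. Both mutant libraries lay far above both wild-type libraries, and the libraries within a group lay close together. The authors' deposited table gave an 8.91-fold rise (log2 3.16 ± 0.14, adjusted p = 1.6e-108). By limma with Benjamini-Hochberg adjustment the log2 change was 3.15 (adjusted p = 2.1e-14), and with each library left out in turn it ranged over 3.04 to 3.26.

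CER3, a Gypsy family element, rose in both of its parts. CER3-I stood at 250.0 and 124 normalized counts in the mutants, against 19.7 and 11.4 in the wild type. The ratio between the mutant libraries was greater than for the other called internal parts, but the lower of them was still far above both wild-type libraries. The authors' deposited table gave an 11.8-fold rise of CER3-I (log2 3.56 ± 0.45, adjusted p = 2.3e-13), and with each library left out in turn limma gave log2 values of 2.97 to 3.97. The end CER3-LTR had 26 and 7 reads in the mutants, against 1 and 1 in the wild type. With so few wild-type reads its ratio was poorly determined, at 22.3 with a 95% counting interval of 5.70 to 192. In the authors' deposited table CER3-LTR passed (log2 4.36 ± 1.45, adjusted p = 0.0186), as it did by limma without a filter on low means (adjusted p = 0.00594). A variant end, CER3-1-LTR, had 81.4 and 59.4 normalized counts in the mutants, against 57.1 and 67.5 in the wild type, and its groups overlapped (log2 0.19 ± 0.41 in the authors' deposited table).

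CER8 and CER13, both Pao family elements, rose by less. CER8-I stood at 201 and 242 normalized counts in the mutants, against 96.6 and 88.2 in the wild type. It was 2.38-fold higher in the authors' deposited table (log2 1.25 ± 0.28, adjusted p = 0.000161). CER13-I stood at 49.2 and 45.3 normalized counts in the mutants, against 14.8 and 11.4 in the wild type. It was 3.58-fold higher in the authors' deposited table (log2 1.84 ± 0.61, adjusted p = 0.0182). In both elements the groups did not overlap. With each library left out in turn, the limma log2 values ran from 1.11 to 1.38 for CER8-I, and the lowest was 1.61 for CER13-I. No end row for CER13 was among the 38 members.

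CER1, a Gypsy family element, held more LTR reads than any other member and rose by a smaller factor. It stood at 12747 and 10727 normalized counts in the mutants, against 5754 and 6904 in the wild type. The groups did not overlap, and the gap between them was wider than the gap within either group. The authors' deposited table gave a 1.86-fold rise (log2 0.89 ± 0.13, adjusted p = 1.8e-09). With each library left out in turn limma gave log2 values of 0.76 to 1.02. Beside this value, the summed level of the 15 oocyte genes was 1.42-fold higher in the mutants by the authors' deposited table, and whether it bears on the rise of CER1 was not tested. The end LTRCER1 stood at 105 and 87.7 normalized counts in the mutants, against 52.2 and 73.7 in the wild type, and did not pass in the authors' deposited table (log2 0.63 ± 0.38, adjusted p = 0.325).

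In N2, an insertion of Cer1 disrupts plg-1, a gene for a mucin-like protein needed for the copulatory plug, and plg-1 (build WBcel235, chromosome III, 8852261 to 8853006, forward strand, protein coding) rose as well. It had 122 and 184 normalized counts in the mutants, against 31.7 and 21.8 in the wild type. The authors' deposited table gave plg-1 a 5.62-fold rise (log2 2.49 ± 0.40, adjusted p = 2.7e-08), and limma a log2 change of 2.47. Of the 9 other tabulated genes within 25000 bases of plg-1, none passed in the authors' deposited table, where their log2 values ran from -0.86 to 1.14 (limma called K01F9.2 of these). The nearest was F44E2.9, a protein-coding gene 1729 bases to the left on the reverse strand, with 32.2 and 35.4 normalized counts in the mutants, against 71.9 and 49.8 in the wild type. On the right no tabulated gene lay within 17093 bases. The first there was K01F9.2, with 65.3 and 83.4 normalized counts in the mutants, against 38.8 and 28.0 in the wild type. K01F9.2 missed the threshold in the authors' deposited table (log2 1.14 ± 0.46, adjusted p = 0.0703) and passed by limma (log2 1.14, adjusted p = 0.00624). The deposited values are not split by strand, so sense and antisense reads at these genes cannot be told apart.

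**Figure D2:**
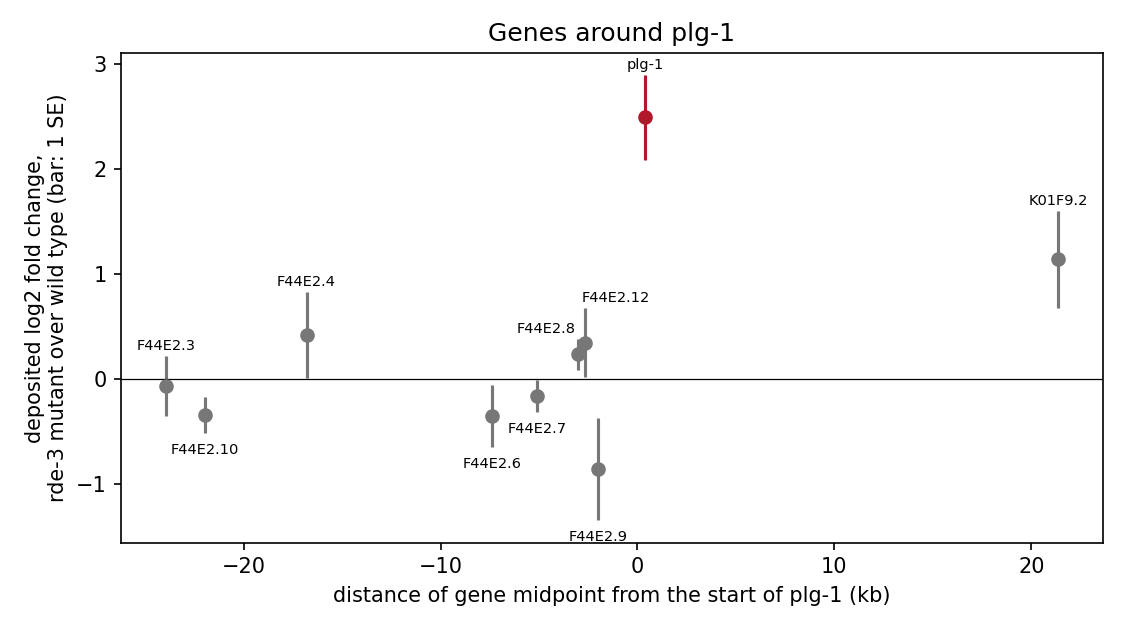
Deposited log2 fold change of mutant over wild type (vertical axis; bars, 1 standard error) of plg-1 and the 9 tabulated genes around it, against the distance of each gene's midpoint from the start of plg-1 in kilobases. plg-1, at 2.49, is the one gene that passed; its neighbours lie between -0.86 and 1.14.

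CER17-I, of the Pao family, was the one LTR row called lower, among 11 of the 38 with a negative log2 value in the authors' deposited table. It stood at 319 and 296 normalized counts in the mutants, against 676 and 542 in the wild type, with no overlap of the groups. The authors' deposited table put it 1.98-fold lower (log2 -0.99 ± 0.20, adjusted p = 1.2e-05). In the limma fits without each library in turn its log2 value ran from -1.14 to -0.82. Its end CER17-LTR had 10 and 3 reads in the mutants, against 16 and 6 in the wild type, too few for a change of that size to be called (log2 -0.34 ± 1.16 in the authors' deposited table). CER16-2-I, another abundant Pao row, did not pass. It stood at 399 and 252 normalized counts in the mutants, against 302 and 359 in the wild type, so that the wild-type values lay between the mutant ones. Its 95% interval in the authors' deposited table was 0.71-fold to 1.38-fold around a log2 value of -0.01.

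A pair of further rows had groups that did not overlap and were called by one of the tests. CER7-I had 43.6 and 55.2 normalized counts in the mutants, against 24.7 and 24.9 in the wild type. The authors' deposited table gave CER7-I a log2 value of 0.99 ± 0.54 that did not pass (adjusted p = 0.235), whereas by limma with Benjamini-Hochberg adjustment it passed (adjusted p = 0.0331). The end CER16-2-LTR had 152 and 129 normalized counts in the mutants, against 93.1 and 92.4 in the wild type. Its log2 value of 0.60 ± 0.31 did not pass in the authors' deposited table (adjusted p = 0.205), and it passed by limma (adjusted p = 0.0396). Neither passed by limma with no filter on low means (adjusted p = 0.0557 for CER7-I and 0.0588 for CER16-2-LTR). With each library left out in turn, the limma log2 values ran from 0.79 to 1.12 for CER7-I and from 0.47 to 0.71 for CER16-2-LTR. Over the 21 members with a mean of at least 10, the mutant libraries both lay above the wild-type ones in 11 and both lay below in 1, against 34.4% and 34.4% of all rows of such a mean.

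The other 29 rows were called neither in the authors' deposited table nor by limma with its filter. With CER7-I and CER16-2-LTR included, the 15 members with a mean of at least 10 that did not pass in the authors' deposited table had log2 values of -0.53 to 0.99, of which 11 were positive and 4 were negative. At their standard errors only log2 changes beyond 0.64 to 2.68 could have been called. The 16 uncalled members with a lower mean had 3 to 41 reads over all 4 libraries, and changes under log2 2.73 to 12.7 were not detectable at this depth. LTR2 had 3 and 2 reads in the mutants and none in the wild type, which puts it at least 2.25-fold higher when the wild-type group is set to a floor of 3 reads in all, which covers counting error only. CER4-I had 3 reads, all in wild-type library A, and no fold is given for it. Of the 36 rows with reads in both groups 9 had a log2 value of at least 1 in the authors' deposited table, against 11.4% of all such rows, and 5 of the 9 were called. A single row of the 36, CER5-LTR, had a log2 value of -1 or less in that table, against 12.4% of all such rows, and it was not called (log2 -1.86 ± 1.51, from 3 and 1 reads in the mutants and 15 and 5 in the wild type).

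**Figure D3:**
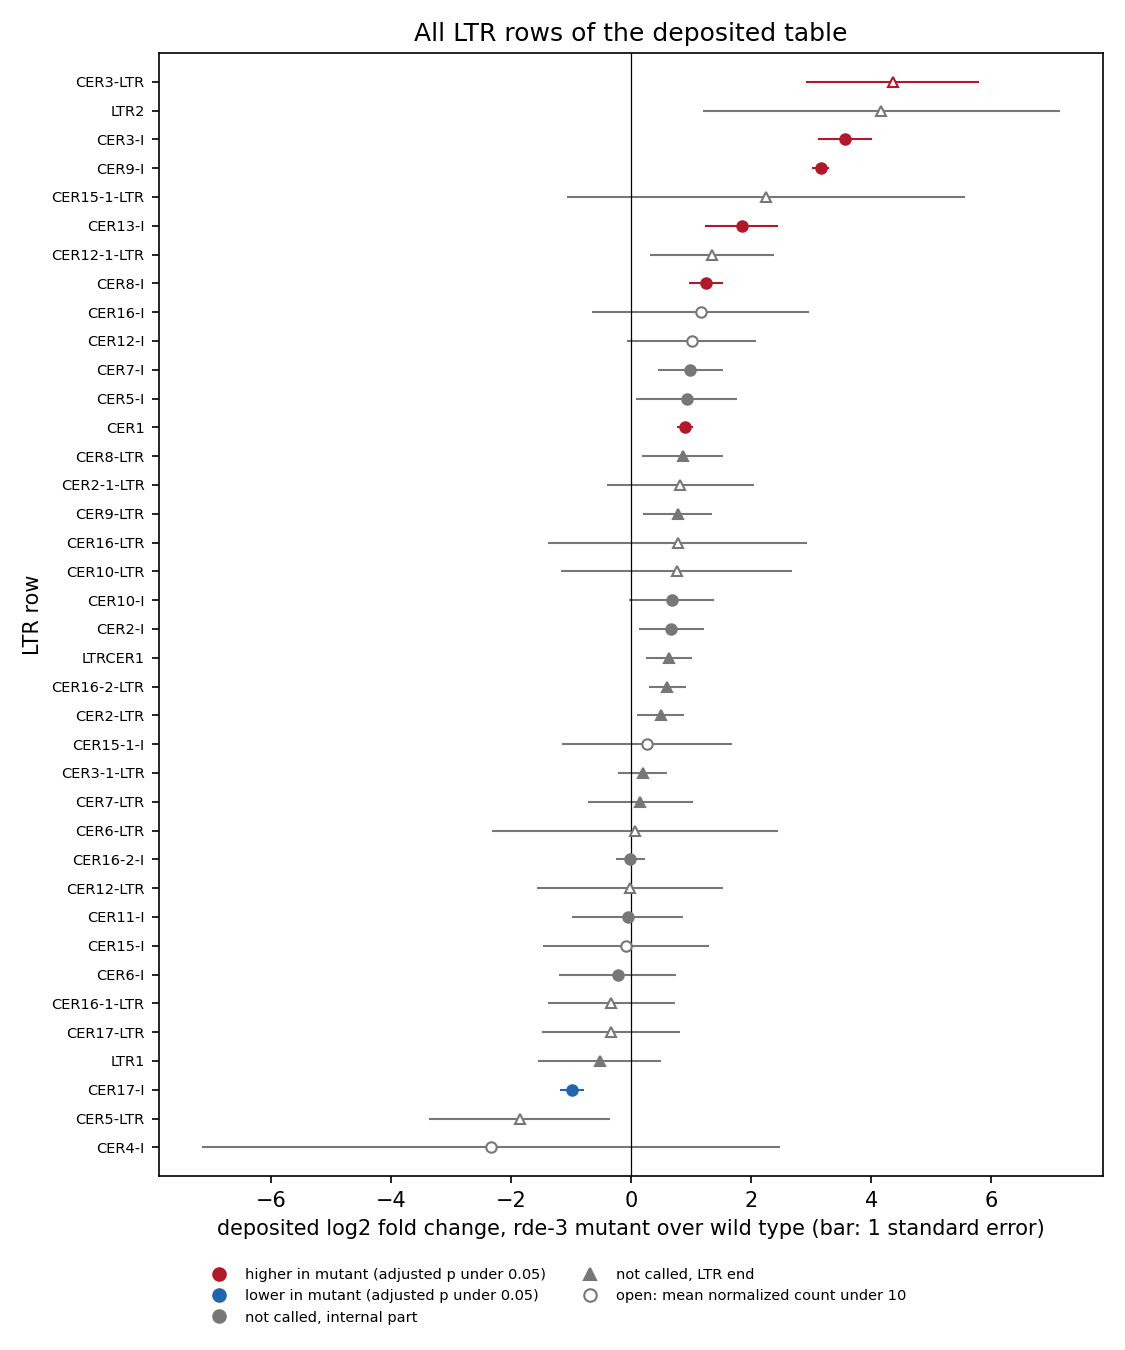
Deposited log2 fold change of mutant over wild type (horizontal axis; bars, 1 standard error) of all 38 LTR rows, with circles for internal parts, triangles for ends, colour for rows with an adjusted p under 0.05 and open symbols for means under 10. Most long bars belong to open symbols, and CER9-I, CER1 and CER17-I have the shortest bars among the coloured ones.

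Internal parts and ends were called in different numbers. Of 18 internal rows 5 were higher and 1 lower by the authors' deposited table, whereas 1 of 20 end rows, CER3-LTR, was higher, against 9.42% of all rows higher and 8.04% lower. The median log2 value was 0.78 for internal rows and 0.62 for ends, and the median standard error was 0.66 and 1.11, so over all rows ends were measured less precisely. Among rows with a mean of at least 10, the median standard error was 0.54 for internal rows and 0.49 for ends. Of these, 5 of 13 internal rows were higher and 1 lower, and 0 of 8 ends were called. The shares of all such rows were 14% higher and 11.9% lower. The difference between these counts was not tested. For 14 elements both parts were tabulated, and the difference of their log2 values was tested with standard errors added in quadrature, which assumes that the errors of both rows are independent. The internal value lay above the end value in 8 elements and below it in 6, and the difference passed in 1 of 14, CER9.

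In CER9 the internal part rose and the end did not pass. CER9-LTR stood at 41.7 and 63.6 normalized counts in the mutants, against 43.7 and 16.6 in the wild type, and the groups overlapped (log2 0.77 ± 0.57 in the authors' deposited table, adjusted p = 0.470). The log2 value of CER9-I exceeded that of CER9-LTR by 2.38 ± 0.59 (95% interval 1.23 to 3.54, adjusted p = 0.000760 over the 14 elements). In reads, the internal part outnumbered the end 98.4 to 1 and 55.3 to 1 in the mutants, against 9.56 to 1 and 26.4 to 1 in the wild type. The wild-type end count rested largely on library A, and without that library limma gave CER9-LTR a log2 value of 1.58. The value was 1.20 without mutant library A, 0.60 without mutant library B and 0.23 without wild-type library B. The row CER1, which may be a whole element, outnumbered the end LTRCER1 121 to 1 and 122 to 1 in the mutants, against 110.3 to 1 and 93.7 to 1 in the wild type. The difference between CER1 and LTRCER1 was 0.26 ± 0.41 on the log2 scale (95% interval -0.54 to 1.06), and that between the parts of CER8 was 0.39 ± 0.73 (-1.04 to 1.83). For CER3 the interval ran from -3.76 to 2.17. These 3 intervals include differences of 2-fold in at least one direction. The intervals of the 10 elements not described so far all include 0. For CER16-2 the internal value minus the end value was -0.62 ± 0.40, for CER7 0.84 ± 1.03, for CER17 -0.65 ± 1.17 and for CER2 0.17 ± 0.67 on the log2 scale. Elements with fewer reads had wider errors. The differences were 2.79 ± 1.73 for CER5, 1.03 ± 1.89 for CER12, -1.98 ± 3.61 for CER15-1, 0.39 ± 2.82 for CER16, -0.29 ± 2.57 for CER6 and -0.08 ± 2.05 for CER10. How reads that match several copies, or both repeats of one copy, were counted is not given in the sources used here.

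**Figure D4:**
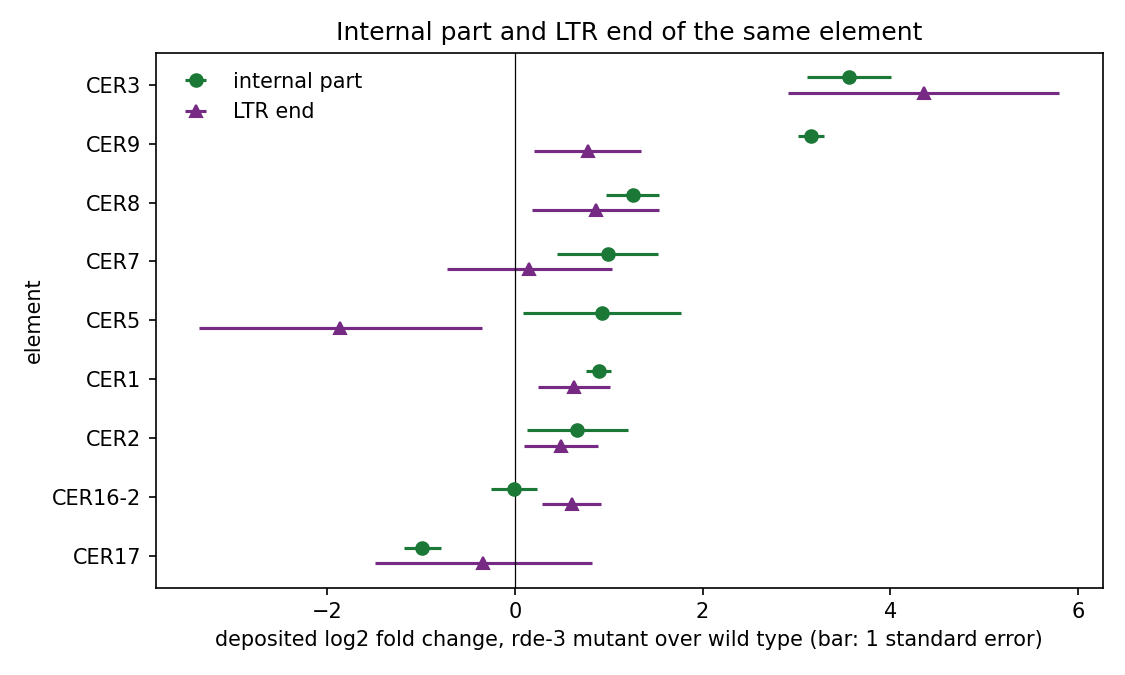
Deposited log2 fold change of mutant over wild type (horizontal axis; bars, 1 standard error) of the internal part (circles) and the LTR end (triangles) of the 9 elements in which both had a mean of at least 5. The parts of CER9 stand apart, at 3.16 and 0.77, and the bars of CER5 and CER16-2 also do not overlap between parts, although their differences did not pass; those of the other 6 elements overlap.

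Summed over all 38 rows, LTR reads were about 2-fold more abundant in the mutants. The summed normalized count was 18888 and 15934 in the mutant libraries, against 7824 and 8873 in the wild-type libraries, a ratio of 2.09. In CPM of the recovered reads, LTR reads came to 1911 and 1729 in the mutants, against 901 and 968 in the wild type. The groups did not overlap, but with 2 libraries each an exact two-sided permutation test cannot go below p = 0.333, the value it gave. CER1 held 67.5% and 67.3% of the sum in the mutants, against 73.5% and 77.8% in the wild type. CER1 and CER9-I together carried 97.0% of the summed difference of 9063 normalized counts. The other 36 rows came to 2042 and 1686 in the mutants, against 1651 and 1531 in the wild type, a ratio of 1.17. These are sums of reads and not of transcripts, because the rows differ in length and no lengths were used.

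**Figure D5:**
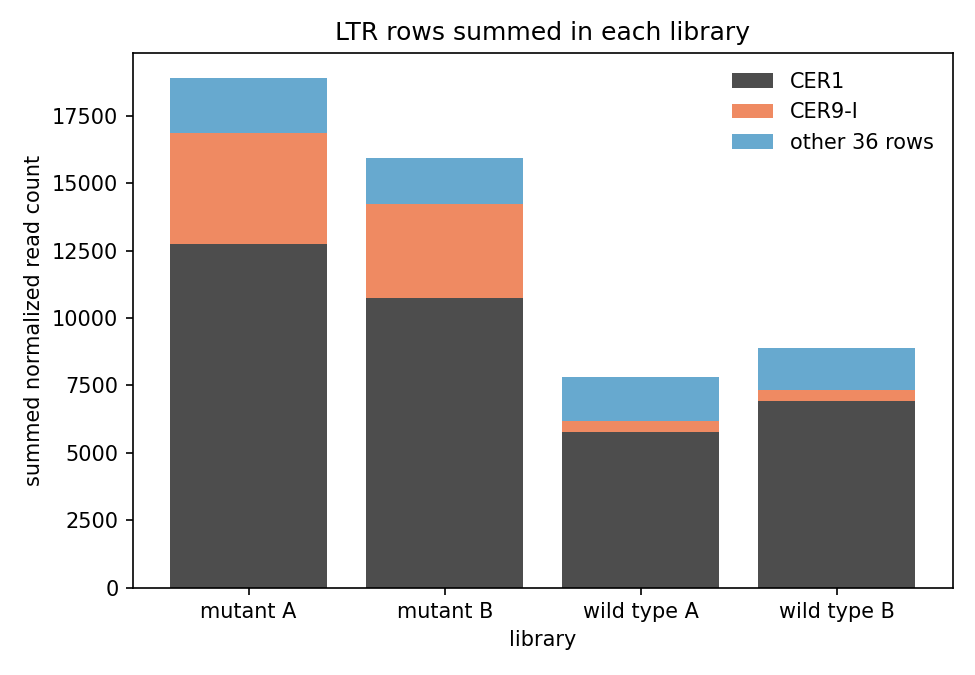
Summed normalized read count of the LTR rows in each library (bars from 0), split into CER1, CER9-I and the other 36 rows. The mutant bars reach 18888 and 15934 and the wild-type bars 7824 and 8873, and the CER1 and CER9-I segments account for most of the difference.

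By family, 3 of 12 Gypsy rows were higher and 0 lower, while 3 of 24 Pao rows were higher and 1 lower, as the authors' deposited table has them, against 9.42% of all rows higher and 8.04% lower. The Pao share of 12.5% higher lay near that background. Among rows with a mean of at least 10, 2 of 8 Gypsy rows and 3 of 12 Pao rows were higher. Both shares were 25%, against 14% of all such rows, so the families did not differ there. No difference between families was tested. The called Gypsy rows were CER1 and both parts of CER3, and the called Pao rows were CER8-I, CER9-I, CER13-I and CER17-I. Neither of the 2 rows without a closer family passed by the authors' deposited table, where the adjusted p was 0.870 for LTR1 and 0.440 for LTR2. Among rows with a mean of at least 10, 5 of 21 LTR rows were higher by the authors' deposited table, against 14% of all such rows. The counts were 9 of 69 for DNA transposon rows, 0 of 13 for LINE rows and 1 of 7 for rolling-circle rows. They were 1 of 9 for satellite rows, 0 of 2 for SINE rows and 0 of 6 for rows of unknown class. In the small class labelled DNA with a question mark, 1 of 4 rows was higher. Over all members the median log2 value was 0.67 for LTR rows, 0.19 for DNA transposon rows and 0.33 for LINE rows in the authors' deposited table. The 13 satellite rows had a higher median than the LTR rows, at 0.73 in that table. With a mean of at least 10 required the order was reversed, at 0.52 for 9 satellite rows and 0.66 for 21 LTR rows. The summed normalized count of DNA transposon rows was 1.78 times and that of LINE rows 1.12 times the wild-type sum. The ratio was 1.98 for the 7 rolling-circle rows (class RC), close to the LTR ratio of 2.09, 1.62 for satellites and 0.29 for the 2 SINE rows. No difference between these classes was tested.

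Genes of the small RNA machinery that acts on transposons were set beside other abundant rows. Of 34 listed genes of the mutator complex, the RNA-dependent RNA polymerases, the Argonautes and nuclear silencing 33 were tabulated, and the authors' deposited table has 8 of them higher and 1 lower, against 19.1% and 14.9% of all rows with a mean of at least 100. The smallest adjusted p belonged to hrde-1, the nuclear Argonaute of heritable silencing, which rose (in the authors' deposited table, log2 0.72 ± 0.13 with an adjusted p of 1.5e-06). In the authors' deposited table ppw-2, another Argonaute gene, fell (log2 -0.67 ± 0.13, adjusted p = 3.2e-06). By the authors' deposited table the endonuclease-related gene nyn-2 rose, with 819 and 584 normalized counts in the mutants, against 329 and 346 in the wild type (log2 1.06 ± 0.20, adjusted p = 3.7e-06). So did rde-11, needed for RNA interference, with 651 and 573 normalized counts in the mutants, against 323 and 338 in the wild type (log2 0.89 ± 0.18 and adjusted p = 2.8e-05, as the authors' deposited table gives them). The median log2 value of the 33 genes was 0.22 in the authors' deposited table.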

How the data were processed

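RNA of 2 rde-3 mutant and 2 wild-type samples was sequenced, and the authors deposited tables of their comparison. Per the submitters' processing notes, STAR 2.7.0a, SAMtools 1.3.1, cutadapt 1.14 and Trim Galore 0.4.4 were among the tools, and ce11 and WBcel235 the builds. The counting tool is not given in the sources used here. Per the file headers, the deposited signal column is the mean of counts over size factors. The deposited log2 column is the fold change, another deposited column its standard error, the deposited score column the Wald statistic, and the deposited p-value columns hold its p and adjusted p over all 18638 rows.

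Whole reads per library were solved from the 15 digits of each mean, using size factors of 1.06 and 0.707 (mutant side) and 1.42 and 0.963 (wild-type side) found from the lowest means. They were recovered for 98.9% of rows. The 212 rows with a mean above 10000 were left out. A negative binomial model of the recovered reads, with the dispersion set from the deposited standard error, gave the deposited log2 value to within 2.1e-05 in 7487 rows with a mean of at least 100. Closeness to the deposited log2 value was itself used to choose among solutions for such rows. This agreement is therefore no independent check of the recovered reads. No library could be matched to a sample title. The libraries of a group correlated at r = 0.983 (mutant) and 0.990 (wild type) on the log2 scale over rows with a mean of at least 10, and libraries of different groups at 0.934 to 0.945. Replicates are called biological in the series' design text.

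The deposited adjusted p at 0.05 was the main test. limma 3.58.1 (R 4.3.3, trended variance, Benjamini-Hochberg adjustment) was run on log2(normalized count + 1) of 12224 recovered rows with a mean of at least 10 as an addition chosen after seeing the data. Its log2 changes are on that scale and understate changes of low rows. Reads recovery and limma were tested on simulated data. Other statistics used scipy 1.17.1 and Python 3.11.15. Members and gene lists were chosen with earlier results of these data known. Named were all called members, elements with both parts, plg-1, genes annotated as retrotransposon products (the reference tables hold no product names, so there were none to name), and the 4 silencing genes of smallest adjusted p. CER7-I and CER16-2-LTR were named after their values were seen. F44E2.2, which the rule also names, was not analysed here. Gene positions are from Ensembl release 115 (WBcel235).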

Additional observations from a re-analysis of the deposited data

How the results depend on the processing

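The 6 higher and 1 lower LTR rows were 4 and 1 at an adjusted p of 0.01, 5 and 1 when adjusted over rows with a mean of at least 10, and 6 and 1 after recentring on abundant genes (median log2 0.05). With a log2 change of at least 1 also required, 5 were higher and 0 were lower. When the deposited statistic was read against t with 2 degrees of freedom, 0 were higher, 0 were lower and 0 of the 14 differences between parts passed (7 members had an unadjusted deposited p under 0.05, and limma called 7 higher and 1 lower). That reading called 0.00% of all rows, so its counts are not particular to LTR rows. By limma the counts were 7 and 1, also with a pseudocount of 0.5, and 6 and 1 with no filter. With each library left out in turn, limma called 5 to 10 higher (10 without mutant library B) and 1 lower. These fits have a single library in one group, assumed to vary like the other, so their calls do not show stability. The rows at least 2-fold higher numbered 9 from recovered counts and 10 to 14 with a library left out (14 without wild-type library A), and those lower 1, and 1 to 4 (4 without mutant library A, 2 without mutant library B or wild-type library B). No share of all rows is given for the counts with a library left out, so they cannot be read as particular to LTR rows. The summed LTR ratio of 2.09 was 2.81 without CER1.

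Some members not called in the deposited table, named below, changed sign under another setting, and the cause was not tested. Their deposited log2 values lay between -0.23 and 0.19, except 0.67 for CER10-I and -0.53 for LTR1. CER11-I was at 0.028 by limma, at 0.028 with no filter and at 0.033 with the lower pseudocount, and CER12-LTR at 0.020 with no filter. With a library left out, limma gave -0.12 to 1.17 for CER10-I, -0.52 to 0.57 for CER11-I (0.103 without mutant library A), -0.39 to 0.27 for CER16-2-I (0.067 without wild-type library B), -0.063 to 0.39 for CER3-1-LTR, -0.75 to 0.24 for CER6-I, -0.12 to 0.35 for CER7-LTR and -1.18 to 0.081 for LTR1. No paired analysis was possible because the recovered libraries carry no replicate number. Low read numbers limit the ends and the members with means under 10.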
